A study of Mus musculus with 2 samples.

Results

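B cells of naïve and bleomycin-injured mouse lung were selected on measured transcripts in 2 single-cell RNA-seq libraries. A cell was kept when it held at least 200 genes and at most 15% mitochondrial UMIs (unique molecular identifiers, each counting 1 captured transcript), when Cd79a, Cd79b and Ms4a1 summed to at least 3 UMIs and at least 0.15% of its UMIs, and when Cd3e, Cd3d and Cd3g summed to 0 or 1. Values of these 6 genes chose the cells and are given below as a description. The rule found 1390 B cells among the 8451 cells that passed the quality limits. The study compared immune cells of fibrosing and healthy lung, and sorted living CD45+ leukocytes for both libraries. The BLM library came from C57BL/6N mice that received bleomycin, a DNA-damaging drug that injures the lung and leaves fibrosis, and were sampled on day 15. The naive library came from untreated C57BL/6N mice. Each library pooled equal numbers of cells from 3 wild-type mice with no label that ties a cell to its mouse, so each group was 1 library and no difference between them could be tested against the spread between mice. Intervals in brackets are 95% intervals of the UMI or cell counts and cover counting error only, and UMIs of the same cell are not independent.

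B cells recognise antigen through a membrane immunoglobulin, made of a heavy and a light chain, that signals through the Cd79a and Cd79b proteins. Engagement of this receptor or of toll-like receptors induces immediate early transcription factors and surface activation markers, and B cells present the captured antigen to T cells on MHC class II. In healthy lung most B cells are naive cells of the blood and the vascular bed that carry IgM and IgD, while inflamed lung can gather B cells in lymphoid aggregates and plasma cells that secrete antibody.

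The marker genes fitted the label. Besides the 3 genes of the rule, Ighd, the heavy chain of IgD, was at 942 CPM (UMIs of the gene per 1000000 UMIs of the same cells) in BLM B cells and 1162 CPM in naive B cells, against 2.97 and 15.6 CPM in T cells of the same libraries. Pax5, a transcription factor of the B lineage, was at 483 and 710 CPM in B cells and at 1.49 and 11.2 CPM in T cells. An Ighd UMI was present in 453 of 590 BLM B cells and 666 of 800 naive B cells. The T cells used here as a reference, 587 in BLM and 481 in naive, held at least 3 UMIs of the Cd3 genes and at most 1 UMI of the 3 B cell genes.

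Transcripts of other cell types were also present in these cells. The 6 neutrophil markers summed to 761 CPM in BLM and 437 CPM in naive B cells, the 12 macrophage and monocyte markers to 1796 and 1841 CPM, and the 10 T cell markers to 43.0 and 77.1 CPM. In T cells the neutrophil markers summed to 358 and 217 CPM and the macrophage and monocyte markers to 4034 and 3615 CPM. Cells holding myeloid markers had at least 5 UMIs of Lyz2 or at least 2 UMIs of S100a8 and S100a9. They were 68 of 590 BLM B cells, 11.5% [9.06, 14.4], and 102 of 800 naive B cells, 12.75% [10.5, 15.3]. Among T cells the shares were 15.5% and 20.8%. These B cells were kept, and some ratios below are also given without them. Summed over B cells, the NK cell markers gave 39.4 and 149 CPM, the dendritic cell markers 19.0 and 56.0 CPM, the stromal and epithelial markers 56.2 and 30.2 CPM, and the erythroid markers 1.46 and 5.27 CPM. Among the defining markers, Tnfrsf17 of plasma cells and Sftpc of epithelial cells were at 0 in the B cells of both libraries, and Xcr1 and Siglech of dendritic cells were at 0 in BLM B cells. Some genes are therefore set beside their values in T cells or in all other passing cells. For genes given without such values, the part of transcripts from other cells was not tested.

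B cells made up 590 of 4526 passing cells in BLM, 13.0% [12.1, 14.1], and 800 of 3925 in naive, 20.4% [19.1, 21.7], a log2 ratio of −0.64. Shares of one library sum to 100%, so this ratio does not separate fewer B cells from more of the other leukocytes. The B cells held 1370920 UMIs in BLM and 2087801 in naive, with a median of 1785 and 1988 UMIs, 976.5 and 1096 genes, and 9.81% and 9.49% mitochondrial UMIs per cell. At the edge of the rule, 50 BLM and 25 naive B cells held a marker sum of exactly 3 UMIs, and 78.0% and 88.0% of them carried an Ighd UMI. Just outside it, 51 BLM and 97 naive cells held a sum of 2 UMIs, and 58.8% and 27.8% of them carried one. No cell number of a B cell occurred in both libraries.

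The level of the share moved with the settings by more than its counting interval. When every cell was first thinned to 1000 UMIs and shallower cells were left out, 10.6% of the BLM library and 17.2% of the naive library met the rule. The share in BLM was below that in naive under each of the 4 alternatives tried, which were a marker sum of at least 5 UMIs, removal of high doublet scores, at most 10% mitochondrial UMIs, and thinning.

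To compare the B cells of both libraries, UMIs were summed per library and 7029 genes with at least 50 UMIs over both were compared as log2(BLM/naive) of CPM. Most were alike: the median log2 ratio was −0.10, and 6067 genes, 86.3%, lay within 1.5-fold. At least 2-fold higher in BLM were 58 genes, 0.825% of those compared, and at least 2-fold lower were 156 genes, 2.22%. To set genes beside the transcripts of other cells, a level of at least 50% of that in all other passing cells was asked for in the library where the gene was higher. Of the 6382 genes that met it 29 were 2-fold higher, 0.454%, and 112 were 2-fold lower, 1.75%. A difference can itself carry a gene past this limit, so the genes of this class are given as a description. Asked for in both libraries, the limit was met by 6126 genes, of which 21 were 2-fold higher, 0.343%, and 89 were 2-fold lower, 1.45%. Egr1 and Egr3, early growth response transcription factors, met it in both libraries, while Hspa1a and Hspa1b, the stress-inducible Hsp70 chaperones, Egr2 and Asprv1 met it in BLM but not in naive. Centring the ratios on their median, a shift of 0.10, changed these counts to 78 higher and 119 lower genes.

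**Figure D1:**
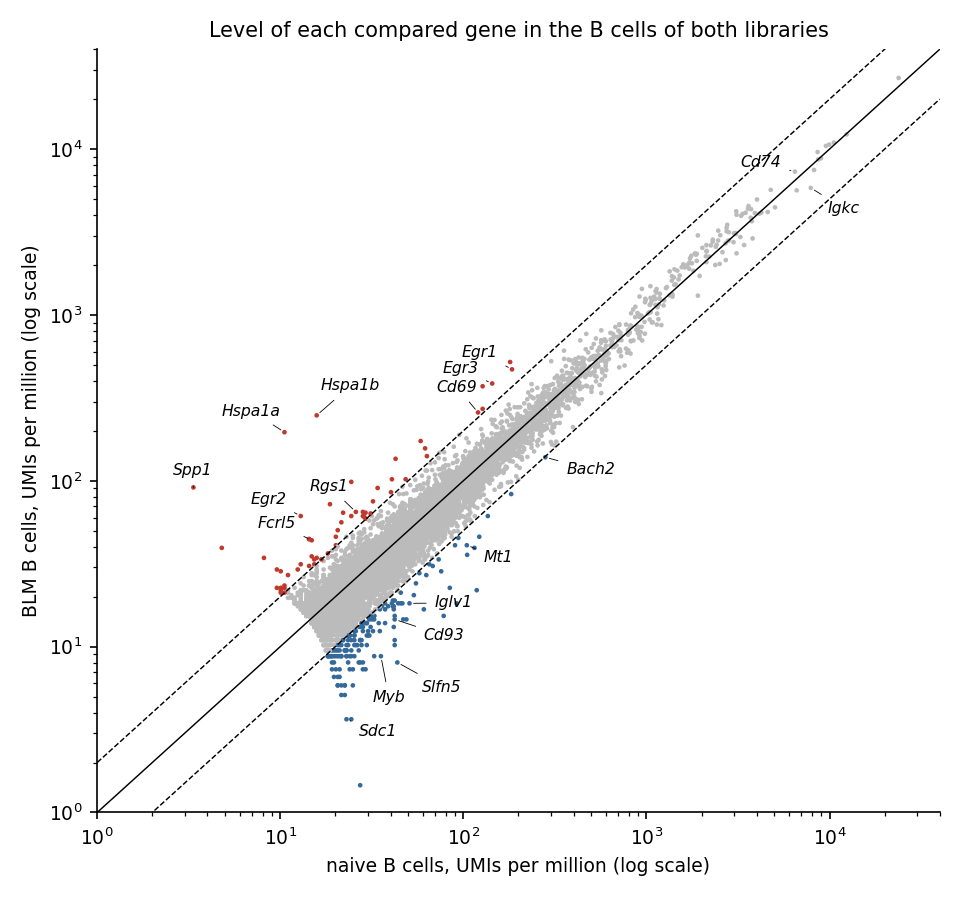
Level of the 7029 compared genes in B cells, in CPM, with naive on the horizontal and BLM on the vertical axis, both on log scales. The solid line marks equal levels and the dashed lines 2-fold, red points are the 58 genes higher and blue points the 156 genes lower in BLM.

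The compared genes that build and transmit the B cell receptor signal were within 2-fold between the libraries. The receptor and signalling list held 23 compared members, which include the rule genes Cd79a and Cd79b. None of them was 2-fold different, against 3.04% of all compared genes. The log2 ratios of the 23 ran from −0.80 to 0.23, and the median was −0.08, close to the −0.10 of all compared genes. The rule genes Cd79a, at 2390 CPM in BLM and 2602 CPM in naive, and Ms4a1, the CD20 protein, at 1340 and 1374 CPM, are given as a description. Cd79b, also a rule gene and so a description, was lower in BLM at 495 and 760 CPM, a log2 ratio of −0.62. Cd22, an inhibitory receptor that binds sialic acid, was at 435 and 493 CPM, a log2 ratio of −0.18 [−0.33, −0.03]. Pax5, the transcription factor that maintains B cell identity, was at 483 CPM in BLM and 710 CPM in naive, a log2 ratio of −0.56 [−0.69, −0.42].

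Of the 8 immunoglobulin constant and joining-chain genes compared, 7 lay below 0, as did the median of all compared genes, −0.10. Of the 8, 1 was 2-fold lower against 2.22% of all compared genes, and 0 were 2-fold higher. The list median was −0.51 against −1.82 in all other cells. The 2-fold lower gene was Jchain, whose ratio of −1.12 turned to 0.35 without the cells holding myeloid markers and to 0.093 as the mean of the cells' CPM. Igkc, the constant part of the kappa light chain, was at 5835 CPM in BLM and 7901 CPM in naive B cells, a log2 ratio of −0.44 [−0.48, −0.40]. Ighm, the heavy chain of IgM, was at 2893 and 3800 CPM, −0.39 [−0.45, −0.34], and Ighd differed by −0.30 [−0.40, −0.20]. Outside B cells the same transcripts were also lower in the BLM library: Igkc in T cells was at 69.8 CPM in BLM and 301 CPM in naive, and Ighm at 111 and 164 CPM. Their part in the difference between B cells was not tested. The lambda constant genes Iglc2 and Iglc3 are near-identical, so reads can be split between them, and their sum was at 510 CPM in BLM and 888 CPM in naive, −0.80 [−0.93, −0.67]. Above 0 stood Ighg2b, the heavy chain of IgG2b, with 42 UMIs in 11 BLM cells and 33 UMIs in 30 naive cells, and 5 BLM cells held 73.8% of theirs.

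By heavy chain, most B cells of both libraries were unswitched. UMIs of both Ighm and Ighd were found in 428 of 590 BLM B cells, 72.5% [68.7, 76.1], and in 662 of 800 naive B cells, 82.8% [79.95, 85.3]. Thinned to 1000 UMIs the shares were 51.8% [47.7, 56.0] and 60.3% [56.8, 63.7]. No UMI of either was found in 15 BLM and 4 naive B cells, 2.54% [1.43, 4.16] and 0.50% [0.136, 1.28]. Among T cells, which should lack these genes, both were found in 1 of 587 in BLM, 0.170%, and 10 of 481 in naive, 2.08%, at median depths of 2807 and 2736 UMIs. A switched call, at least 3 UMIs of the IgG, IgA and IgE heavy chains and more of them than of Ighm and Ighd, was met by 3 of 590 BLM B cells and 1 of 800 naive B cells. Any UMI of these genes was found in 26 and 60 B cells, 4.41% and 7.5%, and in 2.21% and 4.78% of T cells, so single UMIs were not read as switching. After thinning, switched UMIs were in 2.44% and 2.91% of B cells.

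By light chain, 533 BLM and 777 naive B cells could be called from at least 3 UMIs of Igkc or of the summed lambda genes. Lambda exceeded kappa in 20 of the 533 called in BLM, 3.75% [2.31, 5.74], and 40 of the 777 called in naive, 5.15% [3.70, 6.94], and these intervals overlap. Thinned, the shares were 1.37% of 438 and 4.06% of 714 cells. Many called cells held at least 3 UMIs of both Igkc and the lambda sum. These were 90 of the 533 in BLM, 16.9% [13.8, 20.3], and 208 of the 777 in naive, 26.8% [23.7, 30.0]. After thinning they were 4.11% and 8.40%. In such cells the call rested only on which count was larger. None of 8 BLM and 51 naive T cells with a light chain call was lambda. The 57 BLM B cells without a call had a median of 1591 UMIs, and Cd79a was present in all 57, Ighm in 50 and Pax5 in 33. Variable-gene transcripts were sampled in part: an Igkv UMI was found in 202 BLM and 382 naive B cells, spread over 63 and 80 genes, and the most frequent gene held 5.52% and 7.59% of the Igkv UMIs. Iglv1, one of 3 lambda variable genes and singled out after its values were seen, had 25 UMIs in BLM and 106 in naive, −1.48 [−2.17, −0.84], while Iglv3 had 23 and 33, 0.09 [−0.75, 0.90].

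**Figure D2:**
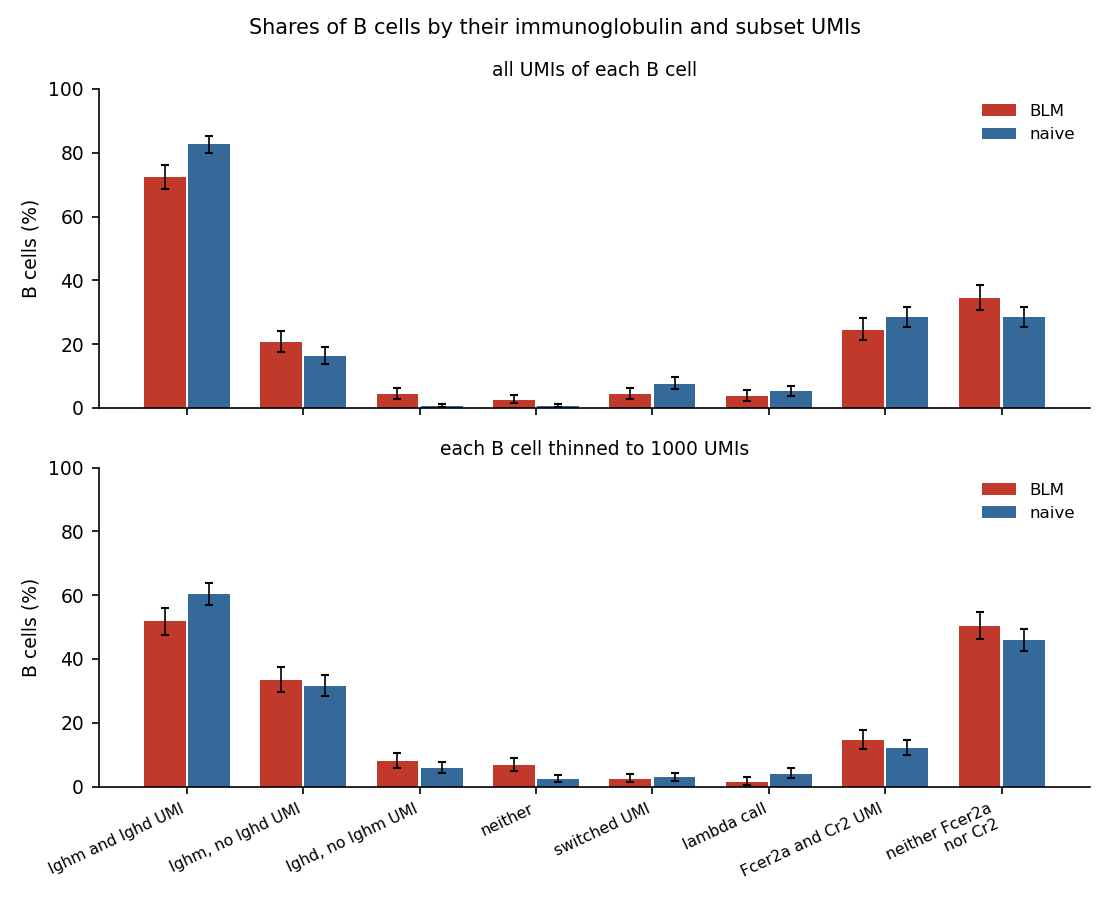
Shares of B cells by the UMIs they held, in percent of B cells (for lambda, of cells with a light chain call), with all UMIs above and each cell thinned to 1000 UMIs below. Red bars are BLM, blue bars naive, and the error bars are exact 95% binomial intervals. Cells with both Ighm and Ighd UMIs were 72.5% of BLM and 82.8% of naive B cells.

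Of 14 compared genes of mature follicular B cells, which recirculate through blood and lymphoid follicles, none was 2-fold different, against 3.04% of all compared genes. The list median was −0.26, against −0.50 over the 8 compared in T cells and −0.57 over the 13 compared in all other cells. Fcer2a, the low-affinity IgE receptor CD23 of follicular cells, was at 344 CPM in BLM and 501 CPM in naive, −0.54 [−0.70, −0.39], and was found in 260 of 590 and 464 of 800 cells. Cr2, the complement receptor CD21, was at 410 and 371 CPM, 0.14 [−0.02, 0.30]. A Cr2 UMI was present in 55.8% of BLM and 49.1% of naive cells with a Fcer2a UMI, and in 38.2% and 32.4% of those without. Fcmr, the Fc receptor for IgM, was at 290 and 427 CPM, −0.56 [−0.73, −0.39].

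The list of marginal zone and B-1 cell genes, which mark innate-like B cells, had a median of −0.03 over 16 compared genes. None of the 16 was past 2-fold, against 3.04% of all compared genes. Dtx1, a regulator of Notch signalling used by marginal zone cells, was at 62.0 CPM in BLM and 34.5 CPM in naive, 0.85 [0.38, 1.32]. Cd1d1, which presents lipids, was at 58.4 and 53.6 CPM, 0.12 [−0.31, 0.55]. S100a6, a calcium-binding protein abundant in B-1 and memory cells but also in myeloid cells, was at 538 and 376 CPM, 0.52 [0.37, 0.67].

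Fcrl5, an Fc receptor-like protein of innate-like and antigen-experienced B cells, was higher in BLM. It had 60 UMIs in BLM and 31 in naive, or 43.8 and 14.8 CPM, a log2 ratio of 1.56 [0.91, 2.23], and 0 UMIs in the T cells of either library. An Fcrl5 UMI was found in 45 of 590 and 27 of 800 B cells. Most of these cells lacked Fcer2a UMIs: among B cells without one, 39 of 330 in BLM, 11.8% [8.54, 15.8], and 17 of 336 in naive, 5.06% [2.97, 7.98], held Fcrl5, against 6 of 260 and 10 of 464 among those with one. The other 4 compared genes of the age-associated B cell list, which describes B cells driven by T-bet, were within 2-fold, and the list median was 0.16. Itgax, the integrin CD11c, was at 21.9 and 29.7 CPM. Tbx21, Cxcr3 and Tnfsf4 had under 50 UMIs.

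Cdh17, a cadherin reported on some B cell subsets and singled out after its values were seen, had 40 UMIs in BLM and 20 in naive, 1.61 [0.80, 2.46], with 0 and 1 UMI in T cells. The opposite was found for Cd93, a marker of recent emigrants from the bone marrow and also of myeloid and endothelial cells, likewise singled out: 20 UMIs in 16 BLM B cells and 88 UMIs in 63 naive B cells, −1.53 [−2.31, −0.82], against 0.34 in T cells and 0.48 in all other cells. Myb, a transcription factor of early B cell development, had 12 UMIs in 9 BLM and 74 UMIs in 52 naive B cells, −2.02 [−3.03, −1.13]. Of the 63 naive cells with Cd93, 8 held Myb, 12.7% [5.65, 23.5], against 44 of 737 without, 5.97% [4.37, 7.93], and these intervals overlap. In BLM 0 of 16 cells with Cd93 held Myb, 0% [0, 20.6], against 9 of 574 without, 1.57% [0.719, 2.96].

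Of the activation and immediate early genes 5 were 2-fold higher in BLM B cells, against 0.825% of all compared genes, and 0 were 2-fold lower. All 36 genes of the list were compared, 26 lay above 0, and the median was 0.26. The same 36 genes had a median of 0.01 in T cells, where 35 were compared, and −0.23 in all other passing cells. The 5 were Cd69, Egr1, Egr2, Egr3 and Bcl2a1d, an anti-apoptotic BCL2 relative. Bcl2a1d was at 1.03, and within 2-fold in 2 settings. It was at 0.92 with at least 5 marker UMIs and at 0.97 without the cells of the highest doublet scores.

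The early growth response genes Egr1, Egr2 and Egr3 encode zinc-finger factors that B cells switch on within minutes to hours of receptor engagement. Egr1 had 644 UMIs in BLM and 385 in naive, or 470 and 184 CPM, a log2 ratio of 1.35 [1.16, 1.53]. Egr3 was at 386 and 144 CPM, 1.43 [1.22, 1.63], and Egr2 at 61.3 and 12.9 CPM, 2.24 [1.60, 2.93]. In the other cells of the same libraries Egr1 and Egr3 did not show this. Egr1 was at 56.9 and 66.1 CPM in T cells and at 116 and 258 CPM in all other cells, a ratio of −1.16 there, and Egr3 at 19.5 and 31.8 CPM in all other cells, −0.70. Egr2 was higher in BLM in both, at 0.39 in T cells and 0.88 in all other cells.

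The 3 genes were unevenly spread over cells. A UMI of any of them was found in 184 of 590 BLM B cells, 31.2% [27.5, 35.1], and in 169 of 800 naive B cells, 21.1% [18.3, 24.1]. After thinning the shares were 24.1% [20.6, 27.8] and 12.5% [10.3, 15.0]. At least 5 UMIs were found in 72 BLM and 34 naive B cells, 12.2% [9.67, 15.1] and 4.25% [2.96, 5.89], against 3 and 6 T cells. The 5 highest cells held 17.8% of the BLM and 24.7% of the naive UMIs, and without the 5 cells highest in Egr1 its ratio was 1.61. Of BLM cells with an Egr UMI, 43.5% [36.2, 51.0] also held Cd69, against 27.8% [23.5, 32.5] of those without, at median depths of 2256.5 and 1659 UMIs. In naive the shares were 27.2% and 19.8%.

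Egr2 lies on chromosome 10 (GRCm38, 67535475 to 67542188, plus strand). RefSeq lists 5 starts for it, and the 250 bases before 4 of them hold a CArG box, the site of serum response factor that is known for driving immediate early genes, searched on both strands. It occurs in 1.47% of the 32851 start windows of the same length. The window before 1 of these 4 starts, inside the annotated gene, is shown with the box in capitals, chr10:67537316-67537565, plus strand, GRCm38.p6. A match is a description of the sequence and was not tested for use.
Egr2: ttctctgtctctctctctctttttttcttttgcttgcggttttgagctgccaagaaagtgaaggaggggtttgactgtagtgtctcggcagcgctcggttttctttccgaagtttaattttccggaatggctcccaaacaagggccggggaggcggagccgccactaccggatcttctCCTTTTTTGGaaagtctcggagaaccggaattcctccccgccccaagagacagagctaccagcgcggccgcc

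Cd69, a surface protein that appears early after activation and holds lymphocytes in tissue, was at 258 CPM in BLM and 120 CPM in naive B cells, 1.10 [0.87, 1.34]. It was found in 193 of 590 and 171 of 800 B cells, 32.7% and 21.4%, and its ratio in T cells was 1.20. Cd86, the co-stimulatory ligand of CD28, was at 213 and 150 CPM, 0.50 [0.27, 0.74], and Cd83, which stabilises MHC class II on the surface, at 875 and 774 CPM, 0.18 [0.07, 0.29]. Nr4a1, an orphan nuclear receptor that reports receptor signalling, was at 1120 and 870 CPM, 0.37 [0.27, 0.46]. Myc, which drives growth, was at 143 and 91.5 CPM, 0.64 [0.35, 0.94]. The AP-1 genes did not share this: Fos was at 323 and 402 CPM, −0.32 [−0.49, −0.15], Jun at 121 and 115 CPM, 0.07 [−0.23, 0.36], and Junb at 479 and 455 CPM, 0.07 [−0.07, 0.22].

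**Figure D3:**
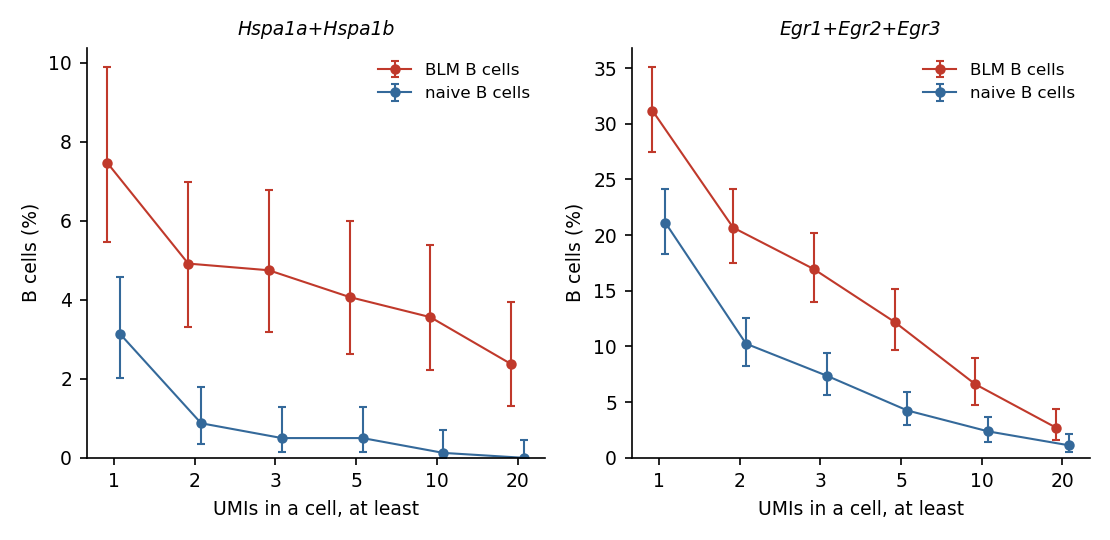
Percent of B cells, on the vertical axis, that held at least the number of UMIs on the horizontal axis (drawn at equal steps, not to scale), for the sum of Hspa1a and Hspa1b on the left and of Egr1, Egr2 and Egr3 on the right. Red is BLM (590 cells), blue is naive (800 cells), and bars are exact 95% binomial intervals. At 10 or more UMIs, 3.56% of BLM against 0.125% of naive B cells held the heat shock pair.

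Hspa1a and Hspa1b were higher in BLM B cells, and their UMIs came from few cells. Hspa1a had 269 UMIs in BLM and 22 in naive, 4.22 [3.59, 4.92], and Hspa1b 340 and 33, 3.97 [3.45, 4.53]. Both lie on the minus strand of chromosome 17 (GRCm38, 34969190 to 34972156 and 34956436 to 34959238), and as near-identical copies they can share reads, so their sum was used. The sum was at 444 CPM in BLM and 26.3 CPM in naive, a log2 ratio of 4.08 [3.68, 4.50]. It was found in 44 of 590 BLM B cells, 7.46% [5.47, 9.88], and 25 of 800 naive B cells, 3.13% [2.03, 4.58]. At least 10 UMIs were found in 21 BLM cells and 1 naive cell, and at least 20 in 14 BLM and 0 naive cells. The 5 highest cells held 34.5% of the BLM and 60.0% of the naive UMIs.

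Other cells of the libraries had a ratio of the opposite sign for this pair: 31.2 CPM in BLM and 54.3 CPM in naive T cells, −0.80 [−1.29, −0.31], and 61.4 and 128 CPM in all other cells, −1.06 [−1.16, −0.96]. In naive the pair was therefore lower in B cells than in the other cells, and in BLM it was higher. Of BLM B cells with an Egr UMI, 20 of 184 held the pair, 10.9% [6.77, 16.3], against 24 of 406 without, 5.91% [3.82, 8.67], at the same median depths as above. Both genes were found together in 25 BLM and 6 naive B cells.

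The 250 bases before the start of each copy, from RefSeq on GRCm38.p6, show how alike the copies are and carry a pair of inverted heat shock factor units, GAANNTTC, in capitals, 104 to 97 bases before the start. The windows are chr17:34972157-34972406 and chr17:34959239-34959488, both on the minus strand, and 247 of 250 bases, 98.8%, are identical. The motif, which reads the same on both strands, occurs in 6.69% of the 32851 windows of this length and was not tested for use here.
Hspa1a: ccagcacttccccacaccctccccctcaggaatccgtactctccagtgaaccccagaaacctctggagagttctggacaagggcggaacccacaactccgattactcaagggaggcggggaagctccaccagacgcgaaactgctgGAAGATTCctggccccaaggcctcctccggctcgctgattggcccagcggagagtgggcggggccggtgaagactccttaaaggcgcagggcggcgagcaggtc
Hspa1b: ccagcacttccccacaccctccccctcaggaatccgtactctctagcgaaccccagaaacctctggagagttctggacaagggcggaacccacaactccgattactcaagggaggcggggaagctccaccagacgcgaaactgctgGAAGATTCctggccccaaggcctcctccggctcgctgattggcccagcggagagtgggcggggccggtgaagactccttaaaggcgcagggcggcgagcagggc

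Of the 15 compared genes of the heat shock and stress list 2 were 2-fold higher, Hspa1a and Hspa1b, against 0.825% of all compared genes, and 0 were 2-fold lower. The other 13 were within 2-fold, and the median of all 15 was 0.33 against −0.11 in both T cells and all other cells. Hspa8, the constitutive Hsp70, was at 769 CPM in BLM and 469 CPM in naive, 0.71 [0.59, 0.84]. Hsp90ab1, a constitutive Hsp90, was at 2539 and 2020 CPM, 0.33 [0.26, 0.40], and Dnajb1, an Hsp40 partner of Hsp70, at 110.1 and 79.0 CPM, 0.48 [0.15, 0.81]. Hspa5, the chaperone of the endoplasmic reticulum, was at 858 and 825 CPM, 0.06 [−0.05, 0.16], and Gadd45a, a DNA damage response gene, at 41.6 and 73.8 CPM, −0.83 [−1.29, −0.38].

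MHC class II presentation was near equal. None of its 14 compared genes was 2-fold different, against 3.04% of all compared genes, and the median was −0.06. In all other cells the median of the 14 was also −0.06. The median of 10 compared in T cells was −1.04, where the list summed to only 2129 CPM in BLM and 3794 CPM in naive. Cd74, the invariant chain that guides class II molecules, was at 7311 CPM in BLM and 6471 CPM in naive B cells, 0.18 [0.14, 0.21], and was found in every B cell. H2-Aa, a class II alpha chain, was at 4452 and 5039 CPM, −0.18 [−0.22, −0.13], and Ciita, the class II master regulator, at 195 and 204 CPM, −0.06 [−0.29, 0.16].

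In MHC class I presentation none of 17 compared genes was 2-fold different, against 3.04% of all compared genes. Of the 17, 16 lay below 0, as did the median of all compared genes, −0.10. The list median was −0.34, against −0.02 in T cells and −0.26 in all other cells. H2-K1, a classical class I heavy chain, was at 1306 and 1911 CPM, −0.55 [−0.63, −0.47], B2m, the class I light chain, at 2001 and 2376 CPM, −0.25 [−0.32, −0.18], and Tap1, which pumps peptides to class I, at 55.4 and 91.0 CPM, −0.72 [−1.12, −0.32]. Tap2, its partner, was the exception at 61.3 and 40.7 CPM, 0.59 [0.14, 1.04].

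Interferon-stimulated genes had the lowest median of the 20 gene lists. Of 24 compared among 37, 6 were 2-fold lower against 2.22% of all compared genes, and 0 were higher. Below 0 lay 22 of the 24, as did the median of all compared genes, −0.10. The list median was −0.76, against −0.45 in T cells and −0.42 in all other cells. Of the 6, 5 were Ifi213, Ifi47, Oasl2, Zbp1 and Gbp4, with 8 to 25 UMIs in BLM and 47 to 97 in naive B cells. At most 10% mitochondrial UMIs left Oasl2 at −0.92 and Ifi47 at −0.86, within 2-fold. Ifi213, a nuclear sensor of the p200 family, was at 18.2 and 46.5 CPM, −1.35 [−2.05, −0.70], and Zbp1, a sensor of Z-form nucleic acid, at 11.7 and 29.7 CPM, −1.35 [−2.24, −0.54], with 0.28 in T cells.

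The other 18 compared members were within 2-fold. Ly6e, an interferon-induced surface protein, was at 2639 CPM in BLM and 3416 CPM in naive, −0.37 [−0.43, −0.31], and Irf7, the factor that amplifies type I interferon, at 18.2 and 35.0 CPM, −0.94 [−1.66, −0.27]. Isg15 and Gbp7 lay above 0, at 0.19 [−0.58, 0.95] and 0.20 [−0.19, 0.57]. Ifit1, Ifit3b and Iigp1 had no UMI in BLM B cells. Slfn5, an interferon-induced Schlafen protein outside the list and among the lowest genes of the whole comparison, had 11 UMIs in BLM and 91 in naive B cells, −2.44 [−3.49, −1.53], and −0.84 in T cells. Trim12c, of the Trim5-related antiviral family and also outside the list, was at 46.0 and 122 CPM, −1.41 [−1.83, −1.01].

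**Figure D4:**
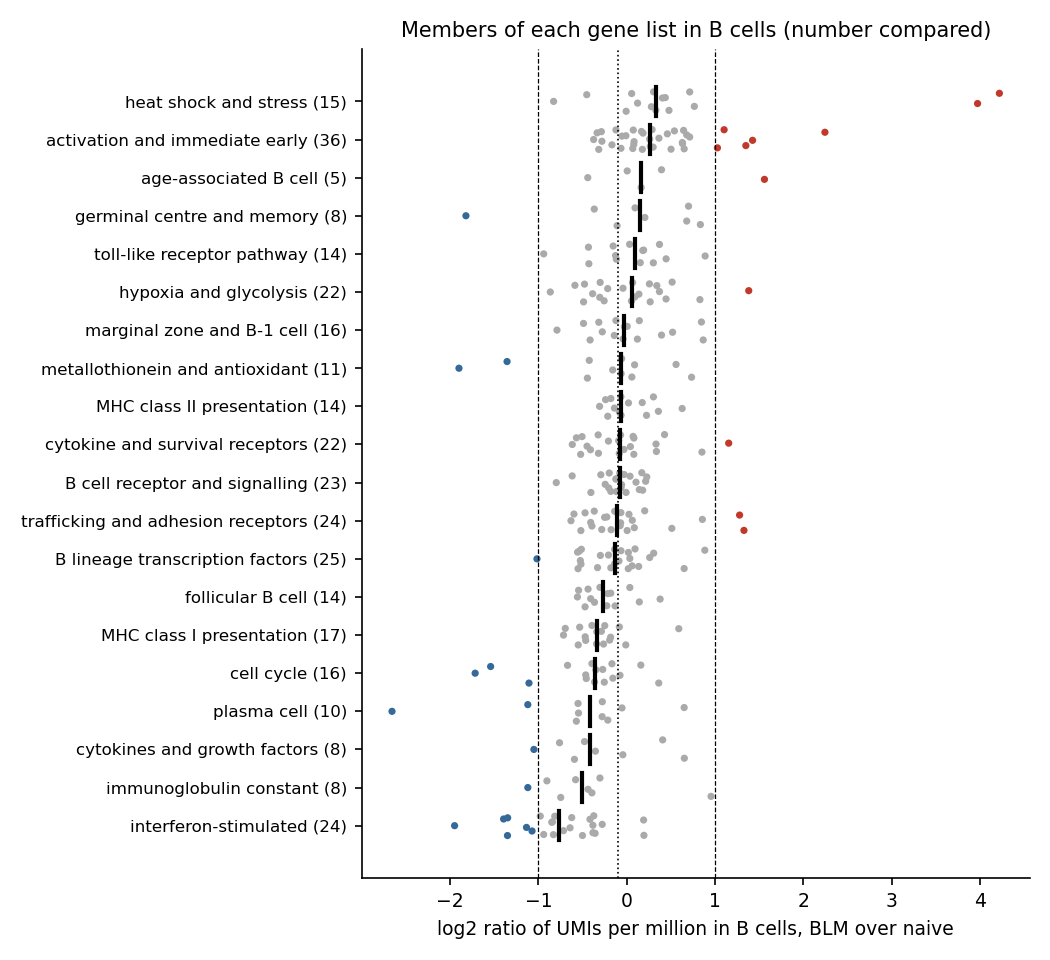
Log2 ratio of CPM in B cells, BLM over naive, of the compared members of each gene list, 1 point per gene, red at or above 2-fold higher and blue at or below 2-fold lower. Black bars are list medians, dashed lines 2-fold, and the dotted line the median of all compared genes, −0.10; interferon-stimulated genes had the lowest median, −0.76, and heat shock genes the highest, 0.33.

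Transcription factors of the B lineage held a median of −0.14 over 25 compared genes, with 1 gene 2-fold lower against 2.22% of all compared genes and 0 higher. That gene was Bach2, a repressor that keeps B cells from plasma cell differentiation, at 139 CPM in BLM and 280 CPM in naive, −1.02 [−1.26, −0.78], with −0.88 as the mean of the cells' CPM, and found in 138 of 590 and 336 of 800 B cells, 23.4% and 42.0%, or 14.3% and 24.9% after thinning. Bach2 was also lower in T cells, at 54.9 and 98.5 CPM, −0.84. Irf4, which rises with receptor signalling and directs plasma cell fate, was at 122 and 77.6 CPM, 0.65 [0.33, 0.97]. Id3, an inhibitor of E proteins, was at 129 and 69.9 CPM, 0.88 [0.56, 1.21], and Klf2, a factor of quiescence and recirculation, at 530 and 563 CPM, −0.09 [−0.22, 0.05].

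Receptors that guide B cells into lymphoid tissue were mixed. The trafficking and adhesion list had 24 compared genes, 2 of them 2-fold higher against 0.825% of all compared genes, 0 lower, and a median of −0.10. Ccr7, the receptor for lymph node chemokines, was at 428 CPM in BLM and 593 CPM in naive, −0.47 [−0.62, −0.33], and Cxcr5, the receptor for the follicular chemokine Cxcl13, at 344 and 402 CPM, −0.22 [−0.39, −0.06]. Cxcr4, the receptor for Cxcl12, was at 807 and 567 CPM, 0.51 [0.39, 0.63], and Ccr6, the receptor for Ccl20, at 160 and 88.6 CPM, 0.86 [0.57, 1.15]. S1pr1, which directs exit into blood and lymph, was at 299.8 and 314 CPM, −0.07 [−0.25, 0.11].

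The 2 genes of that list past 2-fold were Rgs1 and Rgs10, which dampen chemokine receptor signalling. Rgs1 was at 64.9 and 25.9 CPM in B cells, 1.33 [0.82, 1.84], but at 881 and 187 CPM in T cells and 402 and 170 CPM in all other cells, and Rgs10 was at 31.4 and 12.9 CPM in B cells and 158 and 88.7 CPM in all other cells. The part of transcripts from other cells in either was not tested.

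Among cytokines and growth factors 8 of 17 genes were compared, with a median of −0.42, 1 gene 2-fold lower against 2.22% of all compared genes and 0 higher. Ltb, a lymphotoxin that shapes lymphoid tissue, was at 147 CPM in BLM and 152 CPM in naive, −0.04 [−0.31, 0.22], and Tgfb1, a fibrogenic and suppressive cytokine, at 27.0 and 34.5 CPM, −0.35 [−0.97, 0.24]. Il10, the cytokine of regulatory B cells, had under 50 UMIs and was not compared. Ccl4, the lower gene, had 13 and 41 UMIs, and 5 naive cells held 75.6% of the latter. Its ratio of −1.05 was −0.12 without the 5 highest cells of each library.

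Cytokine and survival receptors had a median of −0.08 over 22 compared genes, 1 of them 2-fold higher against 0.825% of all compared genes and 0 lower. Tnfrsf13c, the receptor for the survival factor BAFF, was at 166 and 124 CPM, 0.43 [0.17, 0.69], while Tnfrsf13b, the receptor TACI, was at 93.4 and 124 CPM, −0.41 [−0.73, −0.10]. Ifngr2, a chain of the interferon gamma receptor, was at 107 and 59.4 CPM, 0.85 [0.50, 1.21]. The 2-fold higher gene was Il1r2, an interleukin 1 decoy receptor, at 141 and 63.2 CPM in B cells and 507 and 303 CPM in all other cells, and its ratio of 1.15 was 0.84 without the cells of the highest doublet scores. In the toll-like receptor list none of 14 compared genes was 2-fold different, against 3.04% of all compared genes, and the median was 0.09. Tlr7, a sensor of single-stranded RNA, had 18 and 37 UMIs.

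Proliferation was rare. At least 2 UMIs over 11 genes of dividing cells were found in 11 of 590 BLM B cells, 1.86% [0.934, 3.31], and 23 of 800 naive B cells, 2.88% [1.83, 4.28], against 11.4% and 6.03% of T cells. Of 16 compared genes of the wider cell cycle list 3 were 2-fold lower, Cdk1, Ccna2 and Rrm2, against 2.22% of all compared genes, and 0 higher, with a median of −0.36 against 0.26 in T cells. Without the cells holding myeloid markers the ratio of Cdk1 turned from −1.72 to 0.11 and that of Ccna2 went from −1.54 to −0.79, and Rrm2 went from −1.11 to −0.36 among cells with an Ighd UMI. Each of the 3 rested on few cells: Ccna2, a cyclin of S and G2 phases, had 14 UMIs in 6 BLM cells and 62 UMIs in 15 naive cells. A sum of at least 3 UMIs over the whole list, which includes chromatin genes that resting cells also express, was met by 39.7% of BLM and 52.6% of naive B cells, or 14.5% and 16.8% after thinning.

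Plasma cell and germinal centre genes were sparse as well. Of 10 compared plasma cell genes 2 were 2-fold lower, Jchain and Sdc1, against 2.22% of all compared genes, 0 higher, and the median was −0.41. Jchain, the joining chain of secreted IgM and IgA, had 26 UMIs in 7 BLM B cells and 86 UMIs in 36 naive B cells, −1.12 [−1.81, −0.47], and 5 BLM cells held 92.3% of theirs. As given above, the sign of Jchain turned in 2 of the settings tried. Its level in all other cells was 83.8 and 340 CPM, against 19.0 and 41.2 CPM in B cells. Sdc1, the plasma cell marker CD138, had 5 UMIs in BLM and 48 in naive B cells, −2.66 [−4.34, −1.33], but was at 37.5 and 10.99 CPM in all other cells, a ratio of 1.77. Of 16 germinal centre and memory genes 8 were compared, 1 was 2-fold lower against 2.22% of all compared genes, 0 higher, and the median was 0.15. Mybl1, the lower gene, had 8 and 43 UMIs, and its ratio of −1.82 was 0.21 without the cells holding myeloid markers and −0.33 as the mean of the cells' CPM. Nt5e and Cd80, markers of memory B cells, were at 23.3 and 14.4 CPM, 0.70 [−0.06, 1.47], and at 44.5 and 27.8 CPM, 0.68 [0.14, 1.22].

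Hypoxia and glycolysis genes had a median of 0.06 over 22 compared, against 0.41 in T cells and 0.31 in all other cells, and 1 was 2-fold higher against 0.825% of all compared genes and 0 lower. This was Ddit4, a stress-induced inhibitor of mTORC1, at 56.2 CPM in BLM and 21.6 CPM in naive, 1.38 [0.83, 1.95], with 1.01 in T cells. Hif1a, the hypoxia-inducible factor, was at 110.1 and 77.1 CPM, 0.51 [0.18, 0.84]. Metallothionein and antioxidant genes had a median of −0.06 over 11 compared, with Mt1 and Mt2 2-fold lower against 2.22% of all compared genes and 0 higher. These metal-binding proteins summed to 63.5 CPM in BLM and 189 CPM in naive B cells, −1.57 [−1.92, −1.23], to 102 and 408 CPM in T cells, −1.995 [−2.23, −1.77], and to 856 and 1288 CPM in all other cells.

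**Figure D5:**
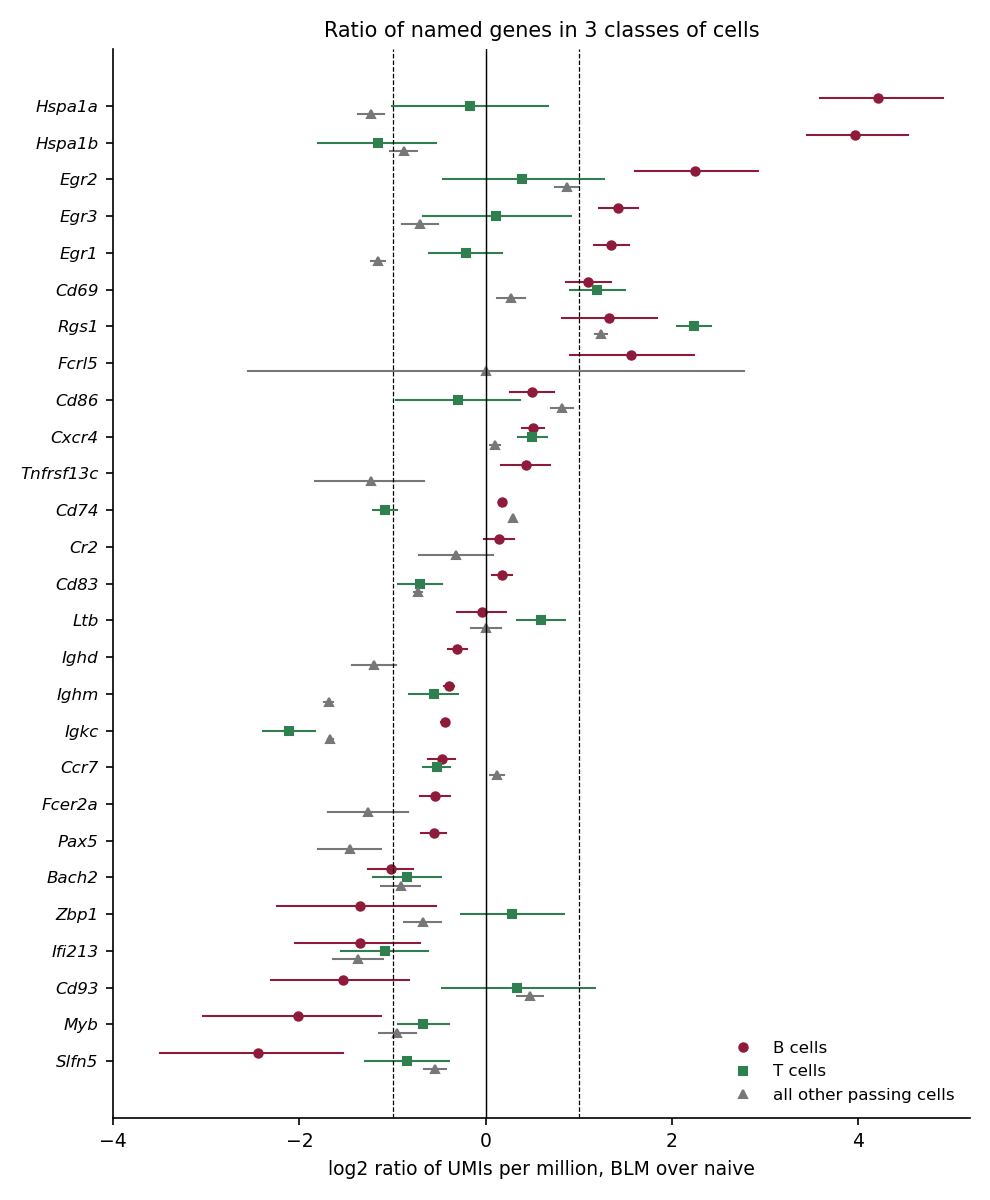
Log2 ratio of CPM, BLM over naive, of named genes in B cells (circles), T cells (squares) and all other passing cells (triangles), with exact 95% intervals of the counts. Genes with under 50 UMIs over both T cell sets are drawn without a square, and dashed lines mark 2-fold. Egr1 was at 1.35 in B cells and −1.16 in all other cells.

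Further genes at the top of the comparison were Bbc3, a pro-apoptotic BH3-only protein, at 44.5 CPM in BLM and 14.4 CPM in naive, 1.63 [0.98, 2.31], Ankrd33b at 64.2 and 22.03 CPM, 1.54 [1.01, 2.09], Zfp52 at 90.5 and 34.0 CPM, 1.41 [0.98, 1.85], and Gm9844 at 157 and 61.8 CPM, 1.34 [1.02, 1.67]. Asprv1, a protease also found in neutrophils, was at 3.04 [2.05, 4.18] with 54 and 10 UMIs, was at 1.39 without the cells of the highest doublet scores, and was at 64.7 and 25.6 CPM in all other cells. Ahr, the receptor for aromatic hydrocarbons, singled out after its values were seen, was at 61.3 and 28.3 CPM, 1.12 [0.62, 1.62], and at −0.08 in all other cells.

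At the lower end stood Cpm, a membrane carboxypeptidase, at 35.7 CPM in BLM and 105 CPM in naive B cells, −1.55 [−2.03, −1.10], with 0.16 in T cells and 0.05 in all other cells. Tsc22d1, a leucine zipper factor, was at 39.4 and 115 CPM, −1.55 [−1.999, −1.11], and at −1.83 in T cells. Hpse, heparanase, which cleaves heparan sulfate, was at 13.1 and 41.7 CPM, −1.67 [−2.49, −0.92]. Slamf7, a self-ligand receptor of the SLAM family, was at 14.6 and 46.9 CPM, −1.69 [−2.46, −0.98]. Tnfaip8l2, an inhibitor of immune signalling, had 8 and 52 UMIs, −2.09 [−3.38, −1.01], and 4921507P07Rik 12 and 68, −1.90 [−2.92, −0.998], with −1.76 in T cells.

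In 647 compared genes the level in B cells was under 50% of that in all other cells, in the library where they were higher. Of these 647, 29 were 2-fold higher, against 0.825% of all compared genes, and 44 were 2-fold lower, against 2.22%. The part of transcripts from other cells in the 647 was not tested. Spp1, osteopontin of macrophages, was at 91.2 CPM in BLM and 3.35 CPM in naive B cells, 4.77 [3.68, 6.11], and at 289 and 8.73 CPM in T cells and 3479 and 119 CPM in all other cells. Fn1, fibronectin, was at 98.5 and 24.4 CPM in B cells, 2.01, and at 2.95 in all other cells. The myeloid genes Il1b, Cxcl2 and Acod1 were at ratios of 1.53, 1.54 and 1.95 in B cells, at 13.2% to 30.2% of the level of the other cells, and at 0.84, 0.67 and −0.011, all within 2-fold, without the cells of the highest doublet scores. The lowest genes of this kind were Cd209a of dendritic cells, −4.23 [−7.31, −2.31], the cytotoxic lymphocyte genes Ccl5, −2.43 [−3.03, −1.88], and Gzma, −2.33 [−3.00, −1.73], the monocyte gene Ly6c2, −2.35 [−3.08, −1.69], and Emp1, −2.74 [−4.43, −1.43]. Without the cells holding myeloid markers Cd209a was at −2.06, Ly6c2 at −1.52 and Emp1 at −0.93, within 2-fold. In that setting Ccl5 and Gzma were lower still, at −3.24 and −4.15.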

How the data were processed

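Living CD45+ lung cells of 3 pooled mice per group were profiled with the BD Rhapsody whole-transcriptome kit after enzymatic digestion of the lung. The deposited tables hold counts: per the labels and file headers, the authors ran the BD Rhapsody WTA Analysis Pipeline version 1.8 (genome GRCm38, GENCODE vM19), which counted error-corrected UMIs per cell and gene. The tables summed to 22490782 UMIs in 4714 barcodes for BLM and 18019004 in 4062 for naive. The deposited values were used as they stood, and a gene absent from a table was set to 0. The B cells and gene lists were chosen with earlier results of these data known. UMIs were summed per library and class with numpy 2.4.6 and scipy 1.17.1, scaled to CPM, and given with exact Poisson, Clopper-Pearson or conditional 95% intervals. Doublets were not removed. Genes named were a standing list of 29, the 10 highest and 10 lowest by the interval end nearer 0 among genes at 50% or more of the level of other cells in the library where they were higher, the 5 highest and 5 lowest below it, and list members past 2-fold or among the 4 of highest level in their list. Other list members, and gene sums, were named after their values were seen. Mitochondrial and ribosomal genes were not named, and some genes of the lists are not reported here by name. The calculation of ratios was checked on simulated counts drawn independently for each gene. Such counts lack the uneven spread of UMIs over cells, so the check does not cover it. Alternatives covered marker limits, doublet scores (scanpy 1.11.5), depth, scaling and filters.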

Additional observations from a re-analysis of the deposited data

Results flagged for a closer look

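Ratios past 2-fold in opposite directions in B cells and all other passing cells were sought among 83 named genes, not among all 7029 compared. They were found for 3 genes, a difference that was not tested because each group was 1 library. Egr1 was at a log2 ratio of 1.35 in B cells and −1.16 in the other cells. Hspa1a was at 4.22 and −1.23, and Sdc1 at −2.66 and 1.77.

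Among barcodes outside the quality limits, 8 of 188 in BLM and 10 of 137 in naive met the marker part of the B cell rule. Their shares, 4.26% and 7.30%, were above the 1.60% and 2.19% that a count of 0 allows. They were below the 13.0% and 20.4% among passing cells. All of these barcodes exceeded 15% mitochondrial UMIs, up to 25.3% in BLM and 21.7% in naive, and 6 in each library held an Ighd UMI.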

How the results depend on the processing

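Each group was 1 library, so the intervals cover counting error, and the libraries and the conditions cannot be told apart. No paired analysis was possible because each group had 1 pooled library and no result comes from a test. The number of 2-fold genes, 58 higher and 156 lower, moved with the filter on low counts, to 132 and 445 with at least 20 UMIs and to 2826 and 955 with no filter, and stayed at 45 to 78 higher and 119 to 184 lower under the other 8 settings, where 31 to 58 and 64 to 138 of these genes were shared. The B cell share was 10.4% in BLM and 18.6% in naive with at least 5 marker UMIs, 7.82% and 15.0% with at most 10% mitochondrial UMIs, and 10.6% and 17.2% after thinning to 1000 UMIs. The alternatives that leave out cells with myeloid markers, without Ighd or with the most UMIs of a gene, or count strict cycling genes, were chosen after seeing the data. The class-switched share of naive B cells was 0% with at most 10% mitochondrial UMIs and 0% after thinning, and the lambda share in BLM was 1.37% after thinning. The share with cell cycle UMIs was 14.5% and 16.8% after thinning, and 1.86% and 2.88% by the strict genes. Of 742 ratios of named genes recomputed, 684 moved by less than their counting error. The sign changed in 16, and in 5 of these the ratio had been past 2-fold. Acod1 was at −0.011 without the cells of high doublet scores. Without cells holding myeloid markers Cdk1 was at 0.11, Jchain at 0.35 and Mybl1 at 0.21, and Jchain was at 0.093 as the mean of the cells' CPM; the cause was not tested. Of 200 list medians 25 moved by more than the SD of the members over the square root of their number and 14 changed sign, among them the germinal centre and memory median, from 0.15 to −0.39 with no filter on low counts. Over all settings Hspa1a ranged from 3.94 to 5.04, Egr1 from 1.09 to 1.61, Cd69 from 1.05 to 1.20, Fcrl5 from 1.39 to 2.21 and Bach2 from −1.23 to −0.88, and the interferon median from −0.85 to −0.47.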
